A study of Mus musculus with 18 samples.

Results

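The levels of 6 transcription factor genes were followed across 6 groups of sorted mouse dermal cells: 3 paired-box genes (Pax1, Pax3 and Pax9) and 3 genes of the AP-2 family (Tfap2a, Tfap2b and Tfap2c). They were chosen by name, as 6 of the 18193 genes with a probe set that carries a single gene symbol. A gene was read from its brightest single-symbol probe set, judged by the mean of all 18 arrays, and its other single-symbol probe sets served as a check.

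Pax3 is switched on at the border of the neural plate, in the neural crest that arises there and in muscle progenitors of the somite, and it maintains the melanocyte precursors of the crest. Tfap2a, Tfap2b and Tfap2c encode AP-2α, AP-2β and AP-2γ, which bind a GC-rich palindrome as dimers. AP-2α is needed for the crest-derived face, and AP-2α and AP-2γ are also factors of the epidermis. Pax1 and Pax9 are close relatives that act in the sclerotome and pharyngeal pouches, and Pax9 also acts in tooth and palate mesenchyme.

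Expression was measured on Affymetrix mouse genome arrays, 3 for each group. In the R26mTmG reporter a cell is red until Cre recombination turns it, and all its descendants, green. EPF cells (green, not red) and ENF cells (red, not green) were both sorted from the dorsal dermis of En1Cre; R26mTmG mice labelled postnatal day 56. Oral cells (green, oral mucosa) and Cranial cells (green, cranial dermis) came from Wnt1Cre; R26mTmG mice labelled postnatal day 30, so they descend from cells in which the Wnt1 driver had been active, a population that includes neural crest. Ventral cells (green, ventral dermis) and Dorsal cells (green, dorsal dermis) came from En1Cre; R26mTmG mice labelled postnatal day 30, and descend from cells in which the En1 driver had been active. The protocols instead put back skin at 30 days, which leaves the age of the EPF and ENF mice uncertain. All mice were untreated, and the sort kept only cells without DAPI (a dead-cell dye), EpCAM, CD45, CD31, Tie2 and an antigen spelled Tie119. The labels do not say that the arrays of a group came from separate animals, so p-values measure the spread between these samples only.

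Values are log2 expression after RMA, a scale on which a difference of 1 is a doubling. The lower quartile of all probe sets on an array lay between 3.93 and 4.10 and the median between 5.19 and 5.32, and a group mean at or below 4.10 is called near background. The EPF and ENF arrays and the 12 arrays of the other 4 groups (the site arrays) formed separate sets, with correlations across genes of 0.962 to 0.988 and 0.946 to 0.998 within the sets and 0.872 to 0.926 between them. Arrays EPF 2 and ENF 1 read 5.20 and 4.98 for Xist, which is transcribed from the inactive X, and the other 4 EPF and ENF arrays read 11.60 to 12.13. Fibroblast genes were high on average in every group, with a mean over 10 genes of 11.93 to 13.70 per array, but single genes differed. Lum read 5.65 to 12.02 in the site arrays and 13.58 to 13.94 in EPF and ENF. Dcn read 10.76 to 10.82 in Oral and 12.10 to 14.56 in the other groups. Keratinocyte genes differed between arrays although all cells were sorted as EpCAM negative. The mean over 13 of them was 7.86, 5.15 and 6.52 in EPF 1, 2 and 3, was 7.29, 9.29 and 9.54 in ENF 1, 2 and 3, and lay between 4.84 and 5.18 in all site arrays.

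**Figure D1:**
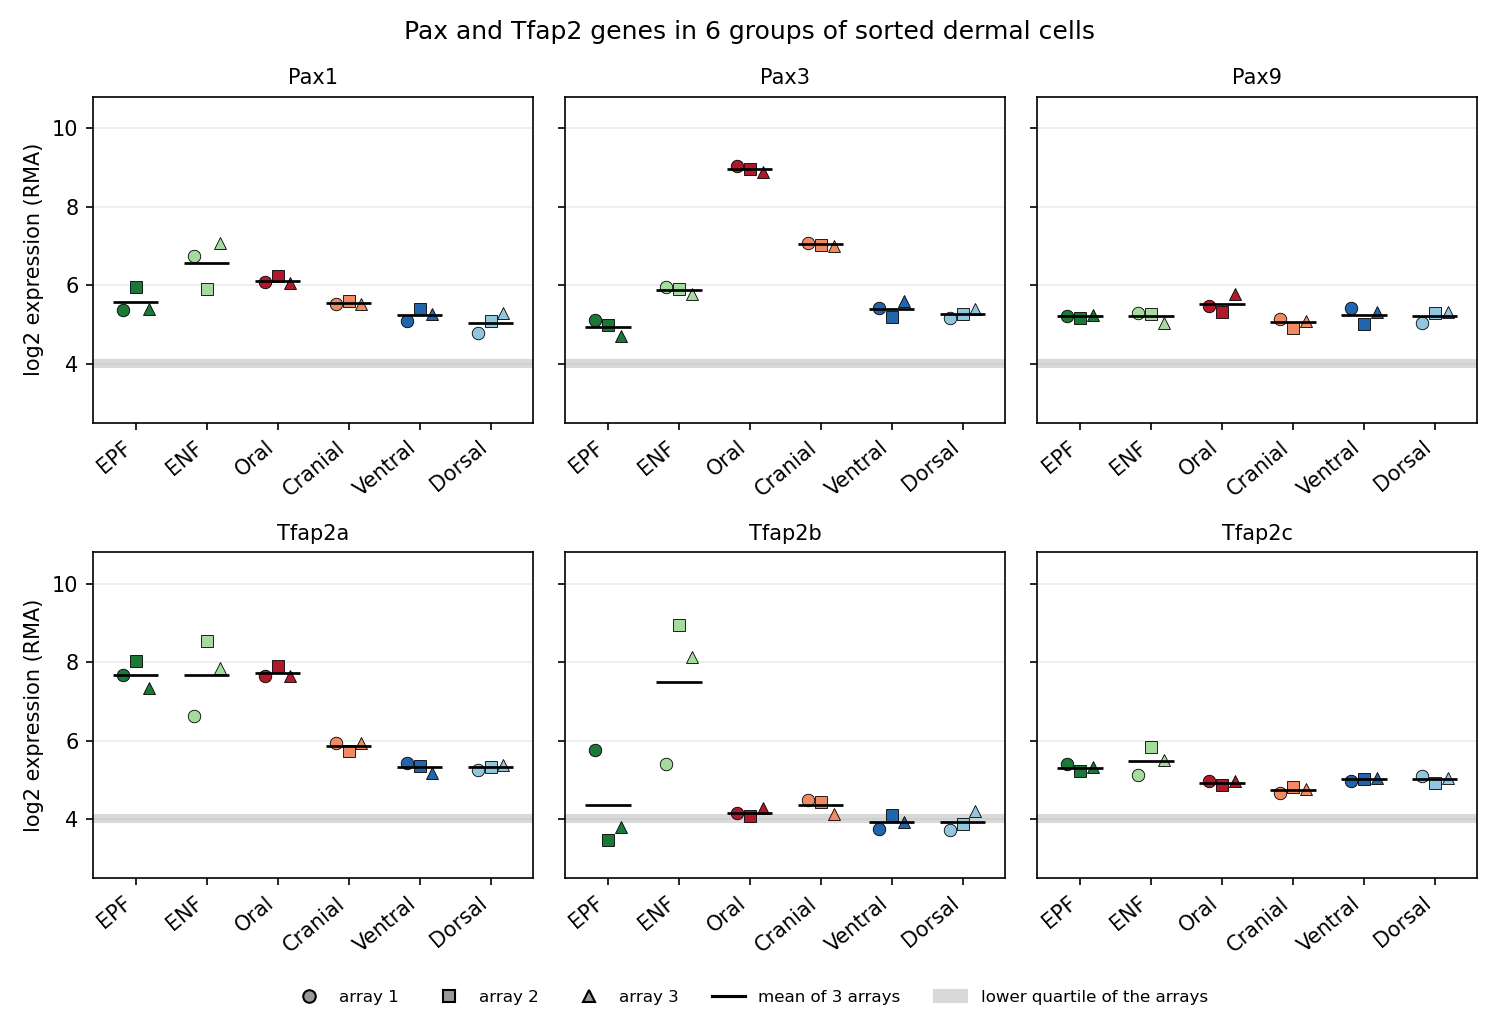
Log2 expression (RMA) of the 6 genes in every array, by group, with a bar at the mean of 3 arrays and a grey band at the range of the arrays' lower quartiles. Pax3 and Tfap2a stand highest among the site groups in Oral, with Pax3 at 8.87 to 9.03 and Tfap2a at 7.64 to 7.90. Tfap2b is far above the band in ENF, at 5.40 to 8.96, and in EPF 1, at 5.77, and Pax9 stays between 4.92 and 5.77 in all 18 arrays.

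Promoter windows were available for 4 of the 6 genes (Pax1, Pax9, Tfap2a and Tfap2b) in the RefSeq table of build GRCm38.p6. The 250 bases before the annotated starts of Tfap2a and Pax1 are shown because these genes stood in the same order over the site groups (Oral, Cranial, then the trunk groups). Each is written from its distal end to the base before the start, in the direction of transcription, and capitals mark the single match to the searched motifs.
Tfap2a, the upstream one of its 2 annotated starts, chr13:40734921-40735170, minus strand: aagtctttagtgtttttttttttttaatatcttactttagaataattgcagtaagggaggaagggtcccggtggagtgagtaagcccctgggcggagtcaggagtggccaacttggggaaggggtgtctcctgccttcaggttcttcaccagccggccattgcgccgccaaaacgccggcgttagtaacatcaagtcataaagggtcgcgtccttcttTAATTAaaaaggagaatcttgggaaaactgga
Tfap2a, the downstream start, chr13:40733796-40734045, minus strand: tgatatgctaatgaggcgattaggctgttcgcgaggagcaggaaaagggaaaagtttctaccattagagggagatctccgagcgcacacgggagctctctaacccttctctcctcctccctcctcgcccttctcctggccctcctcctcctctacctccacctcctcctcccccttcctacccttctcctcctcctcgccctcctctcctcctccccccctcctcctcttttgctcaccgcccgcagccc
Pax1, chr2:147364744-147364993, plus strand: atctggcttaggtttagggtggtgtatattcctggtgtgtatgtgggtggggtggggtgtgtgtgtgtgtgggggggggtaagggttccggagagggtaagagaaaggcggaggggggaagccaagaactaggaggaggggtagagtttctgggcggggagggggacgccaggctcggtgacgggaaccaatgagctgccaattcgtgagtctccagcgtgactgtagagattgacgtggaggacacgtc

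The motifs were GCCNNNGGC, the core palindrome of AP-2 factors, and TAATTA, a core read by many homeodomain proteins. Each reads the same on both strands, and with a single match in the windows of these genes no matches overlapped. Windows of 300 bases, which run 50 bases past the start, were searched. GCCNNNGGC occurred in 16.6% of all 32851 windows and in no window of the 4 genes. TAATTA occurred in 5.29% of all windows, and in 1 window of Tfap2a, beginning 32 bases before the start. A match is a stretch of letters and not a shown binding site, and a missing match says only that these letters are not in the window.

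Pax3 was the gene with the widest range among the site groups. Its level was 9.03, 8.96 and 8.87 in the 3 Oral arrays, 7.08, 7.03 and 7.00 in Cranial, 5.43, 5.19 and 5.59 in Ventral, and 5.16, 5.26 and 5.40 in Dorsal. Every Oral array was above every Cranial array and every Cranial array above every trunk array, while Ventral and Dorsal overlapped.

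In Oral cells Pax3 was 3.77-fold higher than in Cranial cells (log2 difference 1.92 ± 0.12, SE, n = 3 each; adjusted p = 1.28e-05, limma with Benjamini-Hochberg adjustment over all genes). Against Dorsal cells it was 12.8-fold higher in Oral (3.68 ± 0.12, adjusted p = 3.62e-08, limma) and 3.39-fold higher in Cranial (1.76 ± 0.12, adjusted p = 1.15e-05, limma). Against Ventral cells it was 11.7-fold higher in Oral (3.55 ± 0.12) and 3.10-fold higher in Cranial (1.63 ± 0.12), with limma adjusted p of 7.93e-08 and 1.70e-05. Comparisons with the same trunk group share its 3 arrays, so these values stand side by side and are not independent of each other. In these bulk samples, more cells that express a gene and more RNA per cell cannot be told apart.

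The other Pax3 probe sets gave the same order. Probe set 1441743_at read 9.46, 10.31 and 9.69 in Oral and 7.83, 7.35 and 7.63 in Cranial, with Ventral and Dorsal means of 3.80 and 3.83, both near background. Probe set 1430335_a_at was dimmer, at 5.89 to 6.47 in Oral and 4.49 to 4.58 in Cranial, and again near background in both trunk groups. Both were called higher in Oral than in Cranial (2.22 ± 0.21 and 1.71 ± 0.19, limma adjusted p = 0.000396 and 0.000953 over all single-symbol probe sets). On 1441743_at Oral differed from Dorsal by 5.99 ± 0.21, more than the 3.68 of the probe set used, with Dorsal near background.

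Tfap2a followed Pax3 in Oral but less in Cranial. Its level was 7.64, 7.90 and 7.64 in Oral, 5.96, 5.73 and 5.95 in Cranial, 5.44, 5.37 and 5.18 in Ventral, and 5.25, 5.35 and 5.39 in Dorsal. All Oral arrays stood clear of all others, and the Cranial arrays, though closer to the trunk, did not overlap with it. Tfap2a was 3.60-fold higher in Oral than in Cranial (1.85 ± 0.12, adjusted p = 1.49e-05, limma).

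Against the trunk groups, Tfap2a was 5.28-fold higher in Oral than in Dorsal (2.40 ± 0.12, adjusted p = 6.00e-07, limma) and equally 5.28-fold higher than in Ventral (adjusted p = 5.87e-07, limma). The Cranial differences were small and called, at 0.55 ± 0.12 against Dorsal and 0.55 ± 0.12 against Ventral (limma adjusted p = 0.00956 and 0.00942). The Cranial call against Dorsal was lost when each array was centred on its median (0.34, limma adjusted p = 0.0519), and both Cranial calls were lost when all 18 arrays were fitted together (limma adjusted p = 0.272 and 0.261).

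Of the other Tfap2a probe sets, 1426048_s_at showed the same pattern, at 7.16, 7.19 and 7.08 in Oral against 5.10, 5.17 and 5.16 in Cranial. It was called in every comparison of Oral or Cranial, with 2.00 ± 0.12 for Oral against Cranial (limma adjusted p = 1.79e-05). Probe set 1421995_at was flat, between 4.43 and 5.11 in all 18 arrays, and was called in no comparison. The probe sets of Tfap2a disagreed, with 2 of 3 showing the Oral level and 1 reading below the lowest array median, 5.19, everywhere.

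**Figure D2:**
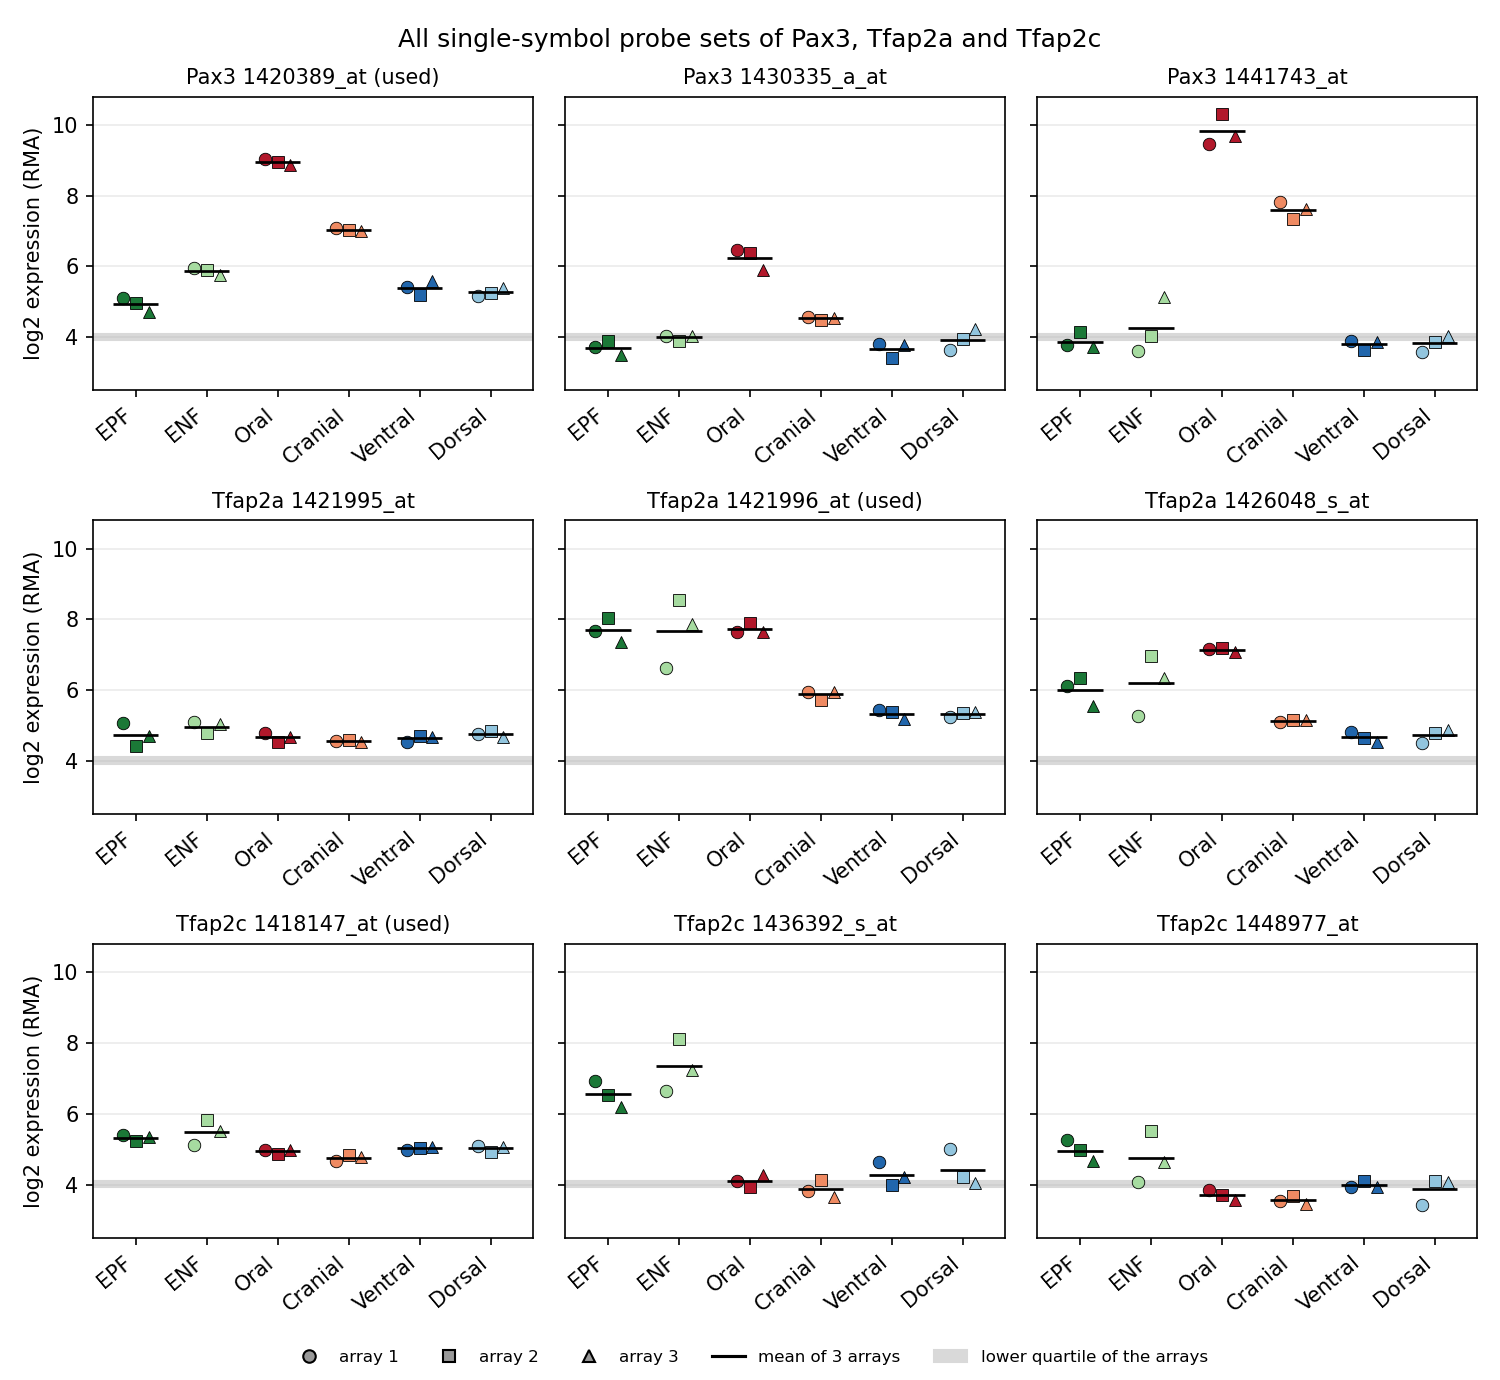
Log2 expression (RMA) in every array for all single-symbol probe sets of Pax3 (top), Tfap2a (middle) and Tfap2c (bottom), with a bar at the mean of 3 arrays and a grey band at the arrays' lower quartiles. All 3 Pax3 probe sets and 2 of 3 Tfap2a probe sets step down from Oral to Cranial, Tfap2a 1421995_at is flat, and Tfap2c 1436392_s_at is above the band mainly in EPF and ENF, at 6.19 to 8.12.

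Pax1 showed a smaller slope of the same order. Its level was 6.08, 6.22 and 6.04 in Oral, 5.52, 5.59 and 5.53 in Cranial, 5.09, 5.40 and 5.25 in Ventral, and 4.77, 5.09 and 5.28 in Dorsal. Oral arrays lay above Cranial arrays and Cranial arrays above trunk arrays, with Ventral and Dorsal overlapping. The gene's other probe set, 1443476_at, read 4.71 to 5.99 across the 18 arrays and was called in no comparison.

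Pax1 was called 2.10-fold higher in Oral than in Dorsal (1.07 ± 0.14, adjusted p = 0.000505, limma) and 1.82-fold higher than in Ventral (0.86 ± 0.14, adjusted p = 0.00198, limma). The difference of Cranial from Dorsal (0.50 ± 0.14, adjusted p = 0.0282, limma) was called, but the call was lost without any 1 of Cranial 1, 2 or 3, with limma adjusted p of 0.0787, 0.0877 and 0.0772. Oral and Cranial differed by 0.57 ± 0.14, which did not pass the adjusted threshold (adjusted p = 0.0925, limma). It passed with the 6 arrays of these groups alone (limma adjusted p = 0.00162) and with array weights (limma adjusted p = 0.000199).

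Pax9, whose product shapes the palate and teeth, was not raised in Oral to the level of a call. The probe set used read 5.48, 5.32 and 5.77 in Oral and 5.13, 4.92 and 5.10 in Cranial, close to the array median in both. The groups did not overlap, and the difference of 0.48 ± 0.15 missed the threshold (adjusted p = 0.290, limma), although it passed with the 6 arrays alone (limma adjusted p = 0.0236) and with array weights (limma adjusted p = 0.0432). The remaining Pax9 probe sets were near background in all 6 groups, at 2.82 to 3.82.

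Tfap2b and Tfap2c were low in all 4 site groups. Tfap2b read 3.72 to 4.50 in the site arrays, with the Ventral and Dorsal means (3.94 and 3.95) near background and those of Oral and Cranial (4.18 and 4.36) just above. Tfap2c read 4.67 to 5.10 there, and its other probe sets 3.44 to 4.99. On the probe sets used, neither was called between any site groups. The second Tfap2b probe set was called for Cranial against Dorsal (0.77 ± 0.24, adjusted p = 0.0495, limma), with Dorsal near background.

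Counted over the 6 genes, 2 were called between Oral and Cranial, both higher in Oral, where 1.14% of all genes were called in either direction. Against Dorsal, 3 of 6 were called in Oral (all higher, 16.8% of all genes) and 3 of 6 in Cranial (all higher, 18.7% of all genes). Against Ventral, 3 of 6 were called in Oral (all higher, 14.6% of all genes) and 2 of 6 in Cranial (both higher, 17.9% of all genes). Between Ventral and Dorsal none of the 6 was called by limma and none had an unadjusted p under 0.05, with 0.0275% of all genes called. The largest of these Ventral minus Dorsal differences was 0.20 ± 0.14, for Pax1.

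**Figure D3:**
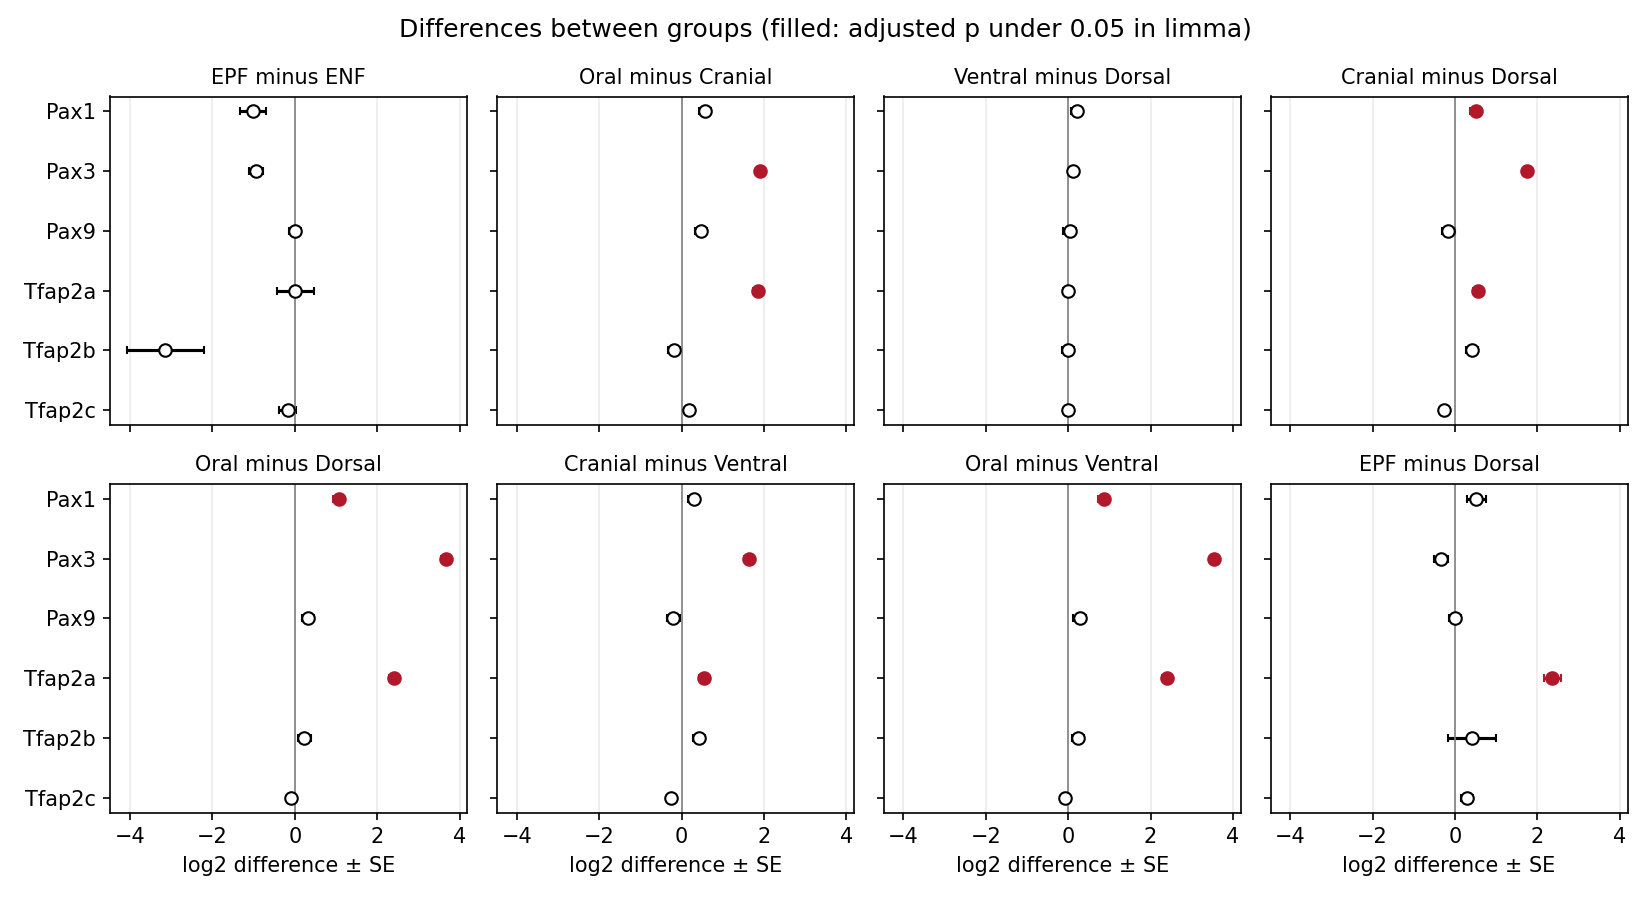
Log2 difference ± SE (limma) of each gene in 8 comparisons, with filled points for an adjusted p under 0.05. Pax3 and Tfap2a are filled in all 5 comparisons of Oral or Cranial with another site, Tfap2a is also filled for EPF minus Dorsal, and no point is filled for EPF minus ENF or Ventral minus Dorsal.

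Over the 12 site arrays Pax3, Tfap2a and Pax1 ran together, with Pearson r of 0.960 for Pax3 with Tfap2a, 0.941 for Pax1 with Pax3 and 0.923 for Pax1 with Tfap2a. These values are descriptions, since the 12 points are 4 groups of 3. By the same measure, the genes most like Pax3 among all 18193 were Lrrc75b (0.994), Pde1a (0.988), a cyclic nucleotide phosphodiesterase, and Erc2 (0.988), a presynaptic scaffold. Those most like Tfap2a were Alx1 (0.990), a homeobox gene of facial mesenchyme, AI606473 (0.988) and P3h2 (0.984), a collagen prolyl hydroxylase. Alx1 averaged 6.75 in Oral, 4.44 in Cranial, 3.67 in Ventral and 3.76 in Dorsal. Those most like Pax1 were Dph6 (0.984), Gap43 (0.977), a growth cone protein, and Atp6v0a1 (0.971), a proton pump subunit. For Tfap2b, Tfap2c and Pax9, which varied little, the closest genes were Insl6 (0.918), Gm266 (0.966) and B230217O12Rik (0.872).

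Some genes that regulate AP-2 activity rose with it in the comparisons with the trunk groups, where 14.6% to 18.7% of all genes were called. Of 5 measured (Kctd1, Kctd15, Cited1, Cited2 and Cited4), Kctd15, an inhibitor of AP-2 in zebrafish neural crest, and Cited2, a coactivator that AP-2 recruits, were called higher in Oral and in Cranial against each trunk group, and the other 3 were not called there. Kctd15 read 9.29, 9.11 and 8.93 in Oral, 8.22, 8.20 and 8.47 in Cranial, 7.68, 7.78 and 7.52 in Ventral, and 7.74, 7.26 and 7.88 in Dorsal. Oral, Cranial and trunk arrays did not overlap, in the same order as for Pax3 and Tfap2a. Its difference was 1.49 ± 0.17 for Oral against Dorsal (adjusted p = 0.000243, limma) and 0.81 ± 0.17 for Oral against Cranial (adjusted p = 0.0493, limma). The call between Oral and Cranial was kept in 5 of 15 alternatives. The Cranial calls were 0.67 ± 0.17 against Dorsal (adjusted p = 0.0196, limma, kept in 11 of 15) and 0.64 ± 0.17 against Ventral (adjusted p = 0.0254, limma, kept in 7 of 15), while both Oral calls against the trunk were kept in 15 of 15.

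Cited2 overlapped between Oral and Cranial, at 11.43 to 11.76 and 11.51 to 11.89, and both were about 2 log2 units above the trunk (2.08 ± 0.23 and 2.14 ± 0.23 against Dorsal, limma adjusted p = 0.000205 and 0.000218). The median difference of the 5 regulators was 0.19 for Oral against Dorsal, beside -0.02 for all genes.

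Among 9 partners and targets of Pax1 and Pax9, Meox2 varied most. Meox2, a homeobox factor whose product binds Pax1 and Pax3, read 8.59, 8.93 and 8.69 in Oral, 7.08, 7.12 and 7.31 in Cranial, 3.74, 4.26 and 4.40 in Ventral, and 4.33, 5.75 and 5.31 in Dorsal. Oral, Cranial and trunk arrays did not overlap. The difference was 1.56 ± 0.30 for Oral against Cranial (adjusted p = 0.0350, limma, kept in 8 of 15 alternatives), 3.61 ± 0.30 for Oral against Dorsal (adjusted p = 3.32e-05) and 2.05 ± 0.30 for Cranial against Dorsal (adjusted p = 0.00137).

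Against Dorsal, 4 of these 9 genes rose and 2 fell in Oral, where 16.8% of all genes were called. The median difference of the 9 was 0.74 beside -0.02 for all genes. Msx1, a partner of Pax9 in tooth mesenchyme, rose by 2.02 ± 0.21 and Osr2, a factor of palate and tooth mesenchyme, by 1.67 ± 0.21 (limma adjusted p = 0.000164 and 0.000414). In Cranial 3 rose and 2 fell against Dorsal, where 18.7% of all genes were called. Meox2 was again first, and Fgf10, a growth factor ligand, was lower (-1.29 ± 0.22, adjusted p = 0.00284, limma). Between Oral and Cranial, Meox2 was the 1 called gene of the 9, where 1.14% of all genes were called.

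**Figure D4:**
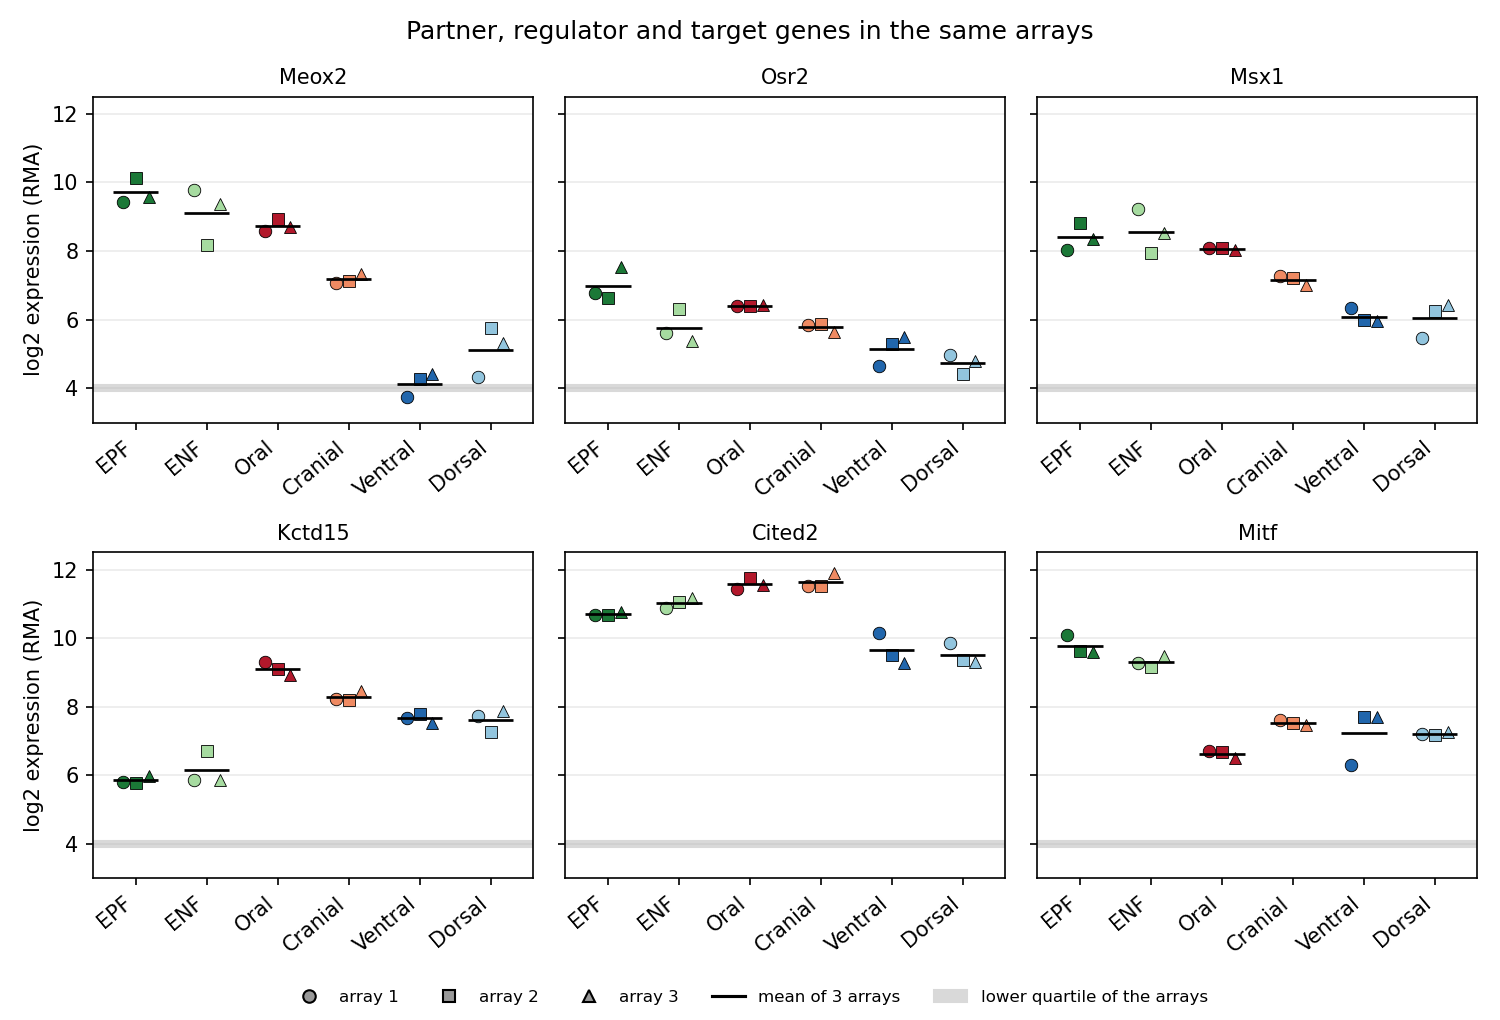
Log2 expression (RMA) in every array of Meox2, Osr2 and Msx1 (top) and of Kctd15, Cited2 and Mitf (bottom), with a bar at the mean of 3 arrays and a grey band at the arrays' lower quartiles. Meox2 and Kctd15 step down from Oral to Cranial to the trunk groups, Cited2 is level in Oral and Cranial, and Mitf, at 6.49 to 6.71 in Oral, does not follow Pax3.

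Listed genes downstream of Pax3 were not called higher together with it among the sites, except Met in Oral against Ventral. Some were too dim to follow, with 2 of the 10 near background in Oral, 2 in Cranial and 1 in Dorsal. Of 10 listed targets, 0 were called between Oral and Cranial by limma and 1 had an unadjusted p under 0.05, with a median difference of -0.0040 beside 0.04 for all genes. Mitf, the melanocyte factor that Pax3 switches on, read 6.71, 6.68 and 6.49 in Oral and 7.62, 7.53 and 7.46 in Cranial. Against Dorsal, 2 of the 10 fell and 0 rose in Oral by limma (1 was higher at an unadjusted p under 0.05), and 3 fell and 0 rose in Cranial (0 higher at that p). Of all 18193 genes, 16.8% were called in Oral (1147 lower, 1918 higher) and 18.7% in Cranial (1356 lower, 2037 higher). Dct, a melanin enzyme, fell by 0.50 and 0.52 in these comparisons (limma adjusted p = 0.0107 and 0.00893, each kept in 13 of 15 alternatives). It read 4.26 to 5.06 in the site arrays, below the lowest array median of 5.19. Lbx1, a factor of migrating muscle precursors, fell in both (kept in 8 of 15 for Oral and 9 of 15 for Cranial), and Fgfr4, a growth factor receptor, fell in Cranial (kept in 6 of 15). Met, a receptor kinase of migrating muscle precursors, was the 1 target called higher anywhere among the sites, in Oral against Ventral (1.27 ± 0.36, adjusted p = 0.0374, limma, kept in 10 of 15 alternatives).

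Of 11 listed AP-2 targets, 1 was called between Oral and Cranial, where 1.14% of all genes were called. Hoxa2, a patterning gene of hindbrain crest, read 3.35, 2.98 and 3.22 in Oral and 5.06, 4.82 and 5.19 in Cranial, with means of 3.23 in Ventral and 3.35 in Dorsal. Of these groups only Cranial was above background, so the exact size of each difference from it is uncertain. Hoxa2 was lower in Oral than in Cranial by -1.84 ± 0.15 (adjusted p = 7.59e-05, limma), opposite to Tfap2a. It was higher in Cranial than in Dorsal (1.68 ± 0.15) and in Ventral (1.79 ± 0.15), as Tfap2a was (limma adjusted p = 6.94e-05 and 4.42e-05). Against Dorsal, 2 of the 11 rose and 1 fell in Oral, and likewise 2 rose and 1 fell in Cranial, beside 16.8% and 18.7% of all genes called. Igfbp5, a growth factor binding protein, was called higher in Oral (1.41 ± 0.27) and in Cranial (1.76 ± 0.27) against Dorsal, with limma adjusted p of 0.00529 and 0.00168. The median difference of the 11 was -0.01 for Oral against Dorsal, beside -0.02 for all genes.

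Among 19 other genes of the neural crest programme, 3 rose and 2 fell in Oral against Dorsal, and 4 rose and 3 fell in Cranial against Dorsal, beside 16.8% and 18.7% of all genes called. Msx1 rose in both, by 2.02 ± 0.21 and 1.12 ± 0.21, while Zeb2, a factor of crest migration, fell in both, by 1.82 and 1.09 on the log2 scale. The Zeb2 call was kept in 15 of 15 alternatives for Oral, but in 11 of 15 for Cranial, where the difference ran between -1.37 and -0.36 (limma adjusted p up to 0.276). Id2 and Dlx5 rose more than Msx1 in Cranial against Dorsal. Their differences were 2.11 and 1.23 (limma adjusted p = 0.0459 and 0.000729, kept in 8 and 15 of 15 alternatives). Zic1, a zinc finger factor of the neural plate border, read 3.16, 3.23 and 3.28 in Oral, near background, between 7.92 and 8.20 in Cranial, 4.03, 4.51 and 4.88 in Ventral, and 8.75, 10.08 and 9.95 in Dorsal. It was lower in Oral than in Cranial (-4.81 ± 0.31, adjusted p = 1.49e-05, limma), opposite to Pax3 and Tfap2a, with the size uncertain because Oral was near background. Also opposite to them, it was lower in Oral than in Dorsal (-6.37, adjusted p = 6.00e-07, limma, kept in 15 of 15 alternatives). The same held for Oral against Ventral (-1.24, adjusted p = 0.0223, limma, kept in 9 of 15). Between Cranial and Ventral it ran the same way as Pax3 and Tfap2a, higher in Cranial by 3.57 ± 0.31 (adjusted p = 5.87e-05, limma), and against Dorsal it was lower in Cranial (-1.56 ± 0.31, adjusted p = 0.00701, limma). Zic1 was also lower in Ventral than in Dorsal (-5.12, adjusted p = 0.000101, limma, kept in 14 of 15 alternatives), where Pax3 and Tfap2a were not called. The other family members measured (Pax4 to Pax8, Tfap2d and Tfap2e) gave 0 calls in all 8 comparisons by limma, with 0 to 3 of these 7 genes at an unadjusted p under 0.05 in a comparison.

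Marker genes were also compared between Oral and Cranial. Fibroblast genes (10) averaged 12.22 to 12.51 in Oral arrays and 12.74 to 13.15 in Cranial arrays. Dcn was the 1 fibroblast gene called between them, lower in Oral by -1.91 (adjusted p = 0.0166, limma, kept in 8 of 15 alternatives). It was also called lower in Oral than in Dorsal (-2.40) and in Ventral (-2.06), each kept in 15 of 15. Melanocyte genes (8) averaged 5.10 to 5.15 in Oral arrays and 5.08 to 5.33 in Cranial arrays, with 0 called between them by limma (2 at an unadjusted p under 0.05). Schwann cell genes (6 of 8 listed) averaged 6.03 to 6.12 in Oral and 5.93 to 5.98 in Cranial, also with 0 called by limma (1 at that p). Keratinocyte genes averaged 4.84 to 4.91 in Oral and 4.90 to 4.98 in Cranial, and 5 and 6 of the 13 were near background. Perp, a desmosome protein, was the 1 keratinocyte gene called between them, lower in Oral by -1.43 ± 0.16 (adjusted p = 0.000826, limma, kept in 14 of 15 alternatives). Myogenic genes (9) averaged 5.03 to 5.30 in Oral and 4.95 to 5.11 in Cranial, with 0 called by limma (1 at that p).

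EPF and ENF cells come from the same dorsal dermis and differ in whether they descend from En1-expressing cells. None of the 6 genes was called between them by limma, 3 had an unadjusted p under 0.05, and 0.308% of all genes were called. With all 18 arrays in the fit, which pools the spread over all groups, 3 were called, all lower in EPF (limma adjusted p = 0.000915 for Pax3, 0.0198 for Tfap2b and 0.0357 for Pax1).

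Pax3 read 5.12, 4.98 and 4.71 in EPF and 5.96, 5.89 and 5.76 in ENF. The groups did not overlap, and the difference was -0.94 ± 0.17 (adjusted p = 0.0842, limma). The other Pax3 probe sets were near background in EPF, and in ENF only 1 array of 1441743_at, ENF 3, was clearly above it, at 5.13. Muscle progenitors are a known site of Pax3. The mean of 9 myogenic genes was 5.04 to 5.25 in EPF, 6.20 to 7.18 in ENF and 4.95 to 5.37 in the site arrays. Of the 9, 2 were called by limma, Myf5 and Acta1, both lower in EPF, and 5 had an unadjusted p under 0.05. Des ran the other way, at 7.49 to 7.99 in EPF and 6.92 to 7.45 in ENF. ENF 3 had the highest myogenic mean, 7.18, but the lowest Pax3 value in ENF on the probe set used, 5.76. Myf5, the early myogenic factor and a Pax3 target, differed by -4.97 ± 0.43 (limma adjusted p = 0.00591, kept in 12 of 15 alternatives), with EPF near background. Pax7, the paralogue of Pax3 in muscle stem cells and singled out after its values were seen, read 4.47, 4.12 and 4.28 in EPF and 5.48, 5.79 and 6.83 in ENF (-1.74 ± 0.33, adjusted p = 0.103, limma). The part of muscle cells in the Pax3 levels was not tested. Of the 9 partners and targets of Pax1 and Pax9, the 5 AP-2 regulators and the 11 AP-2 targets, 0 were called between EPF and ENF by limma (1, 0 and 2 at an unadjusted p under 0.05). Of the 19 other neural crest genes, Zic1 was the 1 called (5 at that p). Zic1 was higher in EPF by 4.46 (adjusted p = 0.000667, limma, kept in 15 of 15 alternatives).

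Pax1 read 5.36, 5.96 and 5.38 in EPF and 6.74, 5.90 and 7.08 in ENF, overlapping at EPF 2 and ENF 2. The difference was -1.01 ± 0.32 (adjusted p = 0.308, limma). ENF 1 and ENF 3 were the highest Pax1 arrays of the study. Pax9 averaged 5.21 ± 0.05 in EPF and 5.20 ± 0.14 in ENF (SD, n = 3 each).

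Tfap2a was high in EPF and ENF alike. It read 7.67, 8.04 and 7.36 in EPF and 6.62, 8.55 and 7.86 in ENF, near the Oral level on the same probe set. ENF spread over almost 2 log2 units and enclosed all EPF arrays, and the difference was 0.01 ± 0.45 (adjusted p = 0.995, limma). Without ENF 1 and EPF 2, the arrays apart in Xist, it was -0.69 ± 0.30 (adjusted p = 0.642, limma).

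Tfap2b had the widest spread. It read 5.77, 3.47 and 3.82 in EPF and 5.40, 8.96 and 8.12 in ENF, so ENF 2 and ENF 3 stood far above the other 4 arrays while EPF 1 and ENF 1 overlapped. The second Tfap2b probe set gave 5.56, 3.38 and 4.06 in EPF and 4.77, 6.96 and 7.21 in ENF, the same arrays high. The difference of -3.14 ± 0.94 was not called (adjusted p = 0.284, limma).

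The order of Tfap2b across the 6 arrays was close to that of the keratinocyte genes. ENF 2 and ENF 3 had the highest means of the 13 genes (9.29 and 9.54), and EPF 2 and EPF 3 the lowest (5.15 and 6.52). Krt14, a keratin of basal epidermis, read 6.30, 4.48 and 5.29 in EPF and 5.80, 9.81 and 9.54 in ENF. Of the 13 genes, Trp63, the basal keratinocyte factor, was the 1 called, lower in EPF by -4.13 ± 0.35 (adjusted p = 0.00591, limma). The Trp63 call was kept in 10 of 15 alternatives, over which the difference ran between -4.34 and -1.25. The median difference of the 13 genes was -3.03 beside 0.00 for all genes. Their part in the Tfap2b levels was not tested.

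Tfap2a departed from this order in 1 array. EPF 2, whose keratinocyte mean of 5.15 lay within the site range, had Tfap2a at 8.04, the second highest of the 6 arrays. Within ENF, Tfap2a was lowest in ENF 1 (6.62), which also had the lowest keratinocyte mean of that group (7.29). It read 8.55 and 7.86 in ENF 2 and ENF 3, beside keratinocyte means of 9.29 and 9.54. The part of keratinocytes in the Tfap2a levels was not tested. Tfap2c on its used probe set varied between 5.13 and 5.84 in the 6 EPF and ENF arrays. Its probe set 1436392_s_at read 6.93, 6.53 and 6.19 in EPF and 6.66, 8.12 and 7.25 in ENF, against 3.65 to 4.99 in the site arrays.

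**Figure D5:**
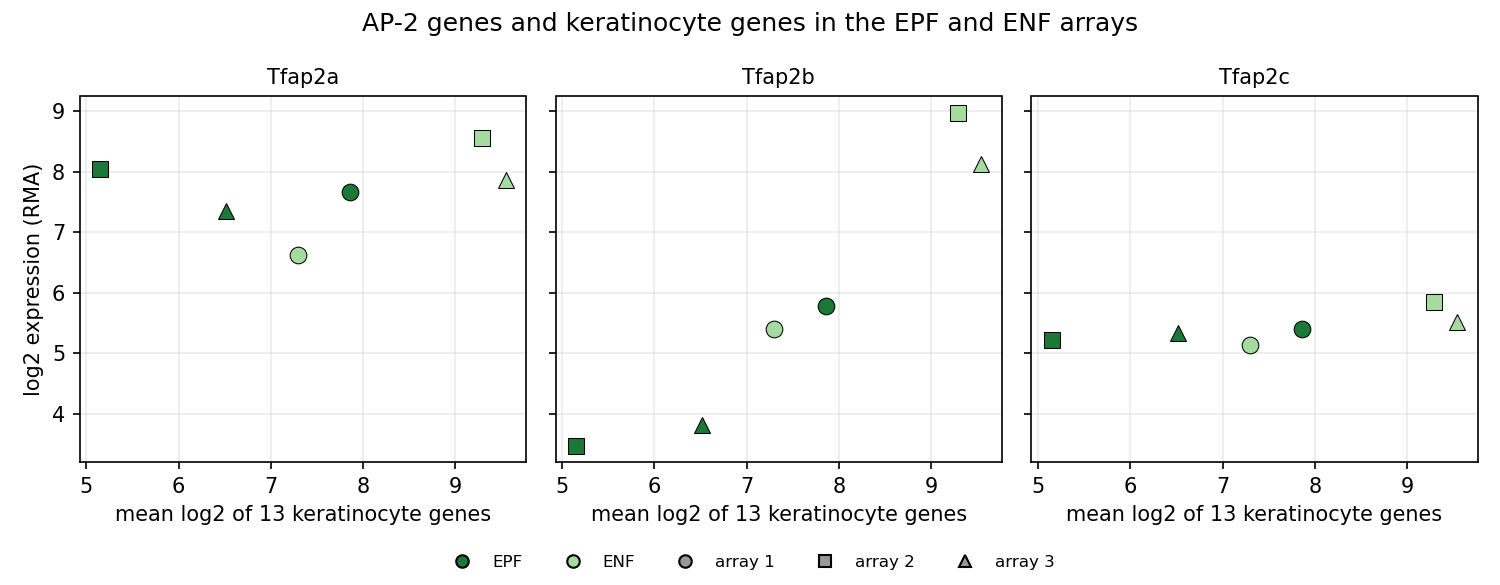
Log2 expression (RMA) of Tfap2a, Tfap2b and Tfap2c against the mean log2 of 13 keratinocyte genes in the 6 EPF and ENF arrays, 1 point per array. Tfap2b is highest, at 8.96 and 8.12, in the ENF arrays with the highest keratinocyte means. Tfap2a is at 8.55 and 7.86 in those arrays and at 8.04 in the array with the lowest mean.

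EPF and Dorsal cells carry the same description, green cells of En1Cre; R26mTmG dorsal dermis, apart from the labelled age, and they lie in the separate sets of arrays. Of the 6 genes 1 was called between them, where 16.8% of all genes were called. Tfap2a read 7.67, 8.04 and 7.36 in EPF and 5.25, 5.35 and 5.39 in Dorsal, a 5.13-fold difference without overlap (2.36 ± 0.20, adjusted p = 0.000833, limma). Its probe set 1426048_s_at was also called (1.29 ± 0.24), and 1421995_at was not. The used Tfap2c probe set was not called (0.29 ± 0.14, adjusted p = 0.230, limma), but 1436392_s_at and 1448977_at were, at 2.13 ± 0.30 and 1.09 ± 0.25 (limma adjusted p = 0.00621 and 0.0309), so the Tfap2c probe sets disagree. The used probe set and 1436392_s_at were nearly tied in brightness, so the count of 1 rests on that choice. Array set, labelled age and group cannot be told apart here.

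Several of the linked genes were called in the same comparison, where 16.8% of all genes were called. Of the 9 Pax1 and Pax9 partners and targets, 5 were higher in EPF and 0 lower by limma (6 higher of 7 at an unadjusted p under 0.05), with a median difference of 2.23 beside 0.01 for all genes. Meox2 rose by 4.58 ± 0.39, Sostdc1, an inhibitor of BMP and Wnt signals, by 3.99 ± 0.78, and Bmp4, a ligand of tooth and hair signalling, by 3.87 ± 0.29 (limma adjusted p = 0.000791, 0.0168 and 0.000523). Sostdc1 read 3.82, 4.14 and 4.04 in Dorsal, near background, so the size of its difference is uncertain, and its call was kept in 11 of 14 alternatives. Of 10 Pax3 targets 3 were higher (Tgfb2 2.60 ± 0.30, Mitf 2.56 ± 0.18 and Met 2.23 ± 0.47), although Pax3 itself was not called (-0.34 ± 0.17, adjusted p = 0.238, limma). The Met call was kept in 10 of 14 alternatives, and the others in 14 of 14. Of 11 AP-2 targets 4 were higher, led by Esr1, the estrogen receptor, by 5.55 ± 0.86 (limma adjusted p = 0.00727), and their median difference was 0.21. Kctd15 moved against Tfap2a, lower in EPF by -1.77 ± 0.20, while Cited2 was higher by 1.20 ± 0.19 (limma adjusted p = 0.00225 and 0.00751). These levels were not particular to EPF within its array set. In ENF, Meox2 read 8.16 to 9.78, Bmp4 7.51 to 9.65, Mitf 9.17 to 9.47, Tgfb2 10.64 to 11.62 and Esr1 11.08 to 11.27. Sostdc1 spread from 3.98 to 8.25 there.

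Markers of fibroblasts and of other cells moved in the same comparison. Of 10 fibroblast genes 4 were called higher in EPF and 0 lower by limma (7 higher at an unadjusted p under 0.05). Their median difference was 0.53, beside 0.01 for all genes. The 4 were Lum, Dcn, Pdgfra and Fn1, kept in 10, 9, 10 and 7 of 14 alternatives. Ncam1 was the 1 called of 6 Schwann cell genes, lower in EPF. Des was the 1 called of 9 myogenic genes and Acan of 8 bone, cartilage and tooth genes, both higher. Of 8 melanocyte genes 2 were called higher in EPF, Mitf and Mlana, a melanosome protein (3.80 ± 0.53, adjusted p = 0.00477, limma), and the 8 averaged 5.87 to 6.23 in EPF arrays and 5.01 to 5.37 in Dorsal arrays. The endothelial receptor gene Tek, which encodes Tie2, averaged 10.20 in EPF and 3.97, near background, in Dorsal (6.24 ± 0.34, adjusted p = 0.000177, limma), although the sort kept Tie2-negative cells. Tek was also high in ENF, at 9.89 to 10.74. It was the 1 called of 5 endothelial genes, which averaged 5.70 to 6.40 in EPF arrays and 4.46 to 4.69 in Dorsal arrays. Csf1r, a receptor of macrophages, was the 1 called of 5 leukocyte genes (2.62 ± 0.61, adjusted p = 0.0299, limma, kept in 9 of 14 alternatives), and these averaged 5.44 to 5.92 in EPF arrays and 4.74 to 5.35 in Dorsal arrays. Keratinocyte genes, with 3 of 13 called higher in EPF, had a median difference of 1.32, and EPF 2 had both the lowest keratinocyte mean and the highest Tfap2a value of the EPF arrays. EPF 1 and EPF 3, with keratinocyte means of 7.86 and 6.52, read 7.67 and 7.36 for Tfap2a. The median differences of the melanocyte, endothelial and leukocyte lists were 0.14, 0.0025 and 0.17, beside 0.01 for all genes. The higher means of these lists in EPF therefore rest on few of their genes. The part of other cells in the values above was not tested.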

How the data were processed

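The authors deposited log2 expression values of 18 Affymetrix arrays in 1 table. RMA with quantile normalization made them, per the submitters' processing notes and the series' design text. Whether all 18 arrays were normalized in 1 run is not given in the sources used here. Groups and replicate numbers come from the sample titles.

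Of 45101 probe sets, 64 were controls, 34945 carried 1 gene symbol in the platform annotation, 932 several and 9160 none. Each of 18193 genes was read from its brightest single-symbol probe set, by the mean of all 18 arrays, and no dim probe set was removed. The members and gene lists were chosen with earlier results of these data known.

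Differences were tested two-sided on the log2 values by lmFit and eBayes of limma (version 3.58.1, R version 4.3.3). Adjustment was by Benjamini-Hochberg over every gene tested, and a call needed an adjusted p under 0.05. The 12 site arrays shared a fit, EPF and ENF had a fit of their 6 arrays, and so had EPF and Dorsal. Errors are SE from limma unless marked SD. The steps were tested on simulated data. Precision is limited by having 3 arrays in a group. Named genes were all 6 members, up to 3 called genes with the largest difference per list and comparison, and the 3 genes with the highest Pearson r to a member over the 12 site arrays. Mitf, Krt14, Pax7, Epcam, Des and Xist were named after their values were seen. Python 3.11.15, pandas 2.3.3 and matplotlib 3.10.9 prepared tables and plots. Alternatives covered the eBayes prior, dim genes, array weights, scaling, averaging probe sets, the replicate number as a block, the arrays in the fit and leaving out each array. Using each other probe set was an alternative added after seeing the data.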

Additional observations from a re-analysis of the deposited data

How the results depend on the processing

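Over 15 alternatives per comparison (14 for EPF minus Dorsal), Pax3 kept its call in 15 of 15 in all 5 comparisons of Oral or Cranial with another site. Tfap2a kept its call in 15 of 15 for Oral minus Cranial, Oral minus Dorsal and Oral minus Ventral, in 13 of 15 for Cranial minus Dorsal, in 14 of 15 for Cranial minus Ventral and in 14 of 14 for EPF minus Dorsal. Pax1 kept its call in 15 of 15 for Oral minus Dorsal and Oral minus Ventral, and in 8 of 15 for Cranial minus Dorsal. Where a call was lost or gained, the cause was not tested.

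The number of the 6 genes called was, with array weights, 4 for Oral minus Cranial (2 as reported), 5 for Cranial minus Dorsal (3 as reported), 5 for Cranial minus Ventral (2 as reported) and 2 for EPF minus Dorsal (1 as reported). With all 18 arrays in the fit it was 3 for EPF minus ENF (0 as reported), 1 for Cranial minus Dorsal and 1 for Cranial minus Ventral. With the 6 arrays of the compared groups only it was 4 for Oral minus Cranial and 4 for Cranial minus Ventral, and with the mean of a gene's probe sets it was 2 for EPF minus Dorsal. It was also 2 for Cranial minus Dorsal with the 6 arrays only and after median centring, 4 there and 3 for Cranial minus Ventral with the mean of probe sets and after renewed quantile normalization, and, after median centring, 3 for Cranial minus Ventral and 4 for Oral minus Dorsal. Leaving out each array in turn gave 2 to 4 calls for Cranial minus Dorsal and the reported number in the other 7 comparisons. With the replicate number as a block the counts were as reported in all 8 comparisons, at 0 for EPF minus ENF, 2 for Oral minus Cranial, 0 for Ventral minus Dorsal, 3 for Cranial minus Dorsal, 3 for Oral minus Dorsal, 2 for Cranial minus Ventral, 3 for Oral minus Ventral and 1 for EPF minus Dorsal. Deviations of same-numbered arrays correlated at -0.38 to 0.30 across genes, with too few arrays to judge pairing.

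On the probe sets used, all differences that changed sign were uncalled. For EPF minus ENF, Tfap2a (reported 0.01) was -0.0293 with array weights, -0.13 with the mean of probe sets, -0.69 without ENF 1 and EPF 2, and -0.51 to 0.45 with each array left out, and Pax9 (reported 0.0015) was -0.0031 after median centring and -0.0770 to 0.0462 with each array left out. For Ventral minus Dorsal, array weights gave Pax9 -0.13, Tfap2b 0.11 and Tfap2c 0.0922, and the mean of probe sets gave Pax3 -0.0556 and Tfap2b 0.13. Leaving out each array there gave Pax9 -0.0561 to 0.16, Tfap2a -0.0550 to 0.0764, Tfap2b -0.12 to 0.13 and Tfap2c -0.0586 to 0.0256. For EPF minus Dorsal, Pax9 was 0.0371 with the mean of probe sets, and leaving out each array gave Pax9 -0.0968 to 0.0428 and Tfap2b -0.30 to 0.85.

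Other probe sets also turned signs. For EPF minus ENF, Pax9 1421246_at gave -0.0246, Tfap2a 1421995_at -0.23, Tfap2a 1426048_s_at -0.18 and Tfap2c 1448977_at 0.22. For Ventral minus Dorsal, Pax3 1430335_a_at gave -0.26, Pax3 1441743_at -0.0307, Tfap2b 1435670_at 0.26 and Tfap2c 1448977_at 0.12. The called Tfap2a differences were -0.19 for Cranial minus Dorsal, -0.0884 for Oral minus Dorsal, -0.0743 for Cranial minus Ventral and -0.0128 for EPF minus Dorsal on 1421995_at. Pax9 1442229_at gave 0.0059 for Cranial minus Dorsal, Pax9 1421246_at gave -0.11 for Oral minus Dorsal and -0.13 for Oral minus Ventral, and Pax1 1443476_at gave -0.0440 for Cranial minus Ventral. For EPF minus Dorsal, Pax1 1443476_at gave -0.10, Pax3 1441743_at 0.0481, Pax9 1421246_at 0.0084 and Pax9 1442229_at 0.11.

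Centring each array on its median moved the median difference of all genes to -0.27 for Cranial minus Dorsal, from -0.06, and to -0.23 for Oral minus Dorsal, from -0.02. It turned the split of called genes from 2037 higher and 1356 lower to 1421 higher and 5317 lower for Cranial minus Dorsal, and from 1918 and 1147 to 1338 and 4045 for Oral minus Dorsal. For Cranial minus Ventral it was 2123 and 1128 as reported and 1690 and 4534 centred, for Oral minus Ventral 1881 and 784 as reported and 1367 and 2822 centred, and for EPF minus Dorsal 1974 and 1081 as reported and 1589 and 1595 centred. The number of all genes called was highest with array weights in each comparison but EPF minus ENF, up to 10113 for Cranial minus Dorsal against 3393 as reported. For EPF minus ENF (56 as reported), fitting all 18 arrays gave 460 and leaving out EPF 2 gave 4. Signal limits Pax9, Tfap2b and Tfap2c in the site groups, near the arrays' median or lower quartile.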
